A study of Mus musculus with 4 samples.

Results

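The leptin receptor gene Lepr and 9 genes whose products carry or limit its signal were followed through the reporter cells of the mouse hypothalamus. The genes were taken by symbol (Lepr, Jak2, Sh2b1, Stat3, Stat5a, Stat5b, Ptpn11, Ptpn1, Ptpn2 and Socs3), and 10 of 10 were found among the 35963 gene rows of the count tables. The cells came from C57BL/6 mice carrying Lepr-cre and Rosa-LSL-tdTomato, in which Cre made from the Lepr locus switches on the red protein tdTomato for good. All plates share this genotype, and they were 3 plates from fed mice and 1 plate from mice without food for 24 h. The reporter marks every cell whose Lepr promoter once was active, so a sorted cell need not hold Lepr mRNA. The sources used here do not give the number, sex or age of the animals behind each plate. Every p-value below therefore rests only on spread between plates, which may be technical. With so few plates, the tests take much of that spread from other genes rather than from the gene itself. Feeding cannot be told apart from plate, because fasting was sampled on 1 plate, which the tests assume to vary like the fed plates.

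Leptin is made by fat and acts in the hypothalamus on neurons that set food intake and energy use. Its receptor has no enzyme of its own and works through the bound kinase JAK2, which phosphorylates the receptor and STAT proteins, chiefly STAT3, which then enter the nucleus and switch on genes that include Socs3. SOCS3 closes a feedback loop by blocking the receptor and JAK2, PTP1B (Ptpn1) and TCPTP (Ptpn2) remove phosphates from JAK2 and STAT3, SHP2 (Ptpn11) links the receptor to the ERK pathway, and SH2B1 binds JAK2 and raises its activity.

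Of 1536 wells, 1279 were kept, namely 356, 322 and 331 in fed plates 1 to 3 and 270 in the fasted one, with median depths of 13507, 7750, 8356 and 9708.5 transcripts per cell. Marker genes sorted the cells into AgRP-like neurons (195 cells), other neurons (190), tanycyte-like cells (234), endothelial-like cells (126), astrocyte-like cells (112), fibroblast-like cells of the vessels and meninges (102) and smaller classes, and names ending in -like rest on those markers alone. A further 112 cells stayed unnamed, 52, 31 and 15 in fed plates 1 to 3 and 14 in the fasted one. They count among the remaining cells when a class is tested against these. The 10 genes were left out of the clustering. Xist without any Y-linked transcript was found in 6.74, 51.6 and 42.0% of cells in the fed plates and 84.4% in the fasted one. Fed plate 1 also held all 57 cells of endothelial-like cluster 8, led by Lcn2, Lrg1 and Ackr1.

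Lepr (ENSMUSG00000057722) lies on the plus strand of chromosome 4 at 101717404 to 101815352 (GRCm38), a locus of 97.9 kb. Its 4 annotated protein-coding transcripts end at positions 101733317, 101792258, 101813667 and 101815352. Levels per gene therefore do not separate the long signalling form from the short forms. On chromosome 11 lie Stat5b, Stat5a, Stat3 and Socs3, where Stat3 (100885098 to 100939540, minus strand) and Stat5a (100859351 to 100885169, plus strand) overlap at their ends on opposite strands, so that reads there are told apart only by strand. Stat5a and Stat5b (100780731 to 100850724, minus strand) are close paralogs, and how reads shared between them were assigned is not stated in the sources used here. Socs3 lies at 117966079 to 117970047, minus strand. The remaining members are Jak2 on chromosome 19 (29251828 to 29313080), Ptpn1 on chromosome 2 (167932057 to 167979385), Sh2b1 on chromosome 7 (126466994 to 126475424), Ptpn11 on chromosome 5 (121130533 to 121191397) and Ptpn2 on chromosome 18 (67665511 to 67724595).

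Lepr was highest in fibroblast-like cells and, on the fasted plate, AgRP-like neurons, and near 0 in tanycyte-like, astrocyte-like and oligodendrocyte-like cells, although all of these were sorted by the same reporter. Levels are in CPM, that is counts summed over the cells of a class on a plate and scaled to the total of those cells. In fibroblast-like cells Lepr stood at 139, 136 and 238 CPM in fed plates 1 to 3 and 209 CPM in the fasted one, from 18, 23, 49 and 15 transcripts. In AgRP-like neurons, whose peptides Agrp and Npy promote feeding, it stood at 27.4, 36.3 and 45.2 CPM in fed plates 1 to 3 and 206 CPM in the fasted one. The level of the fasted plate in these neurons lay above those of the 3 fed plates, while in fibroblast-like cells it lay within their range. In other neurons Lepr was at 23.7, 38.4 and 70.9 CPM in fed plates 1 to 3 and 70.6 CPM in the fasted one, with the fasted plate and fed plate 3 alike. Endothelial-like cells held 19.3, 32.2 and 33.5 CPM fed and 30.4 CPM fasted. Pericyte or mural-like cells, which wrap small vessels, held 8 Lepr transcripts in 9 cells of the fasted plate (167 CPM) and 1 transcript on the fed plates. That class was not tested.

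Tanycyte-like cells, which line the floor of the ventricle and have been proposed to carry leptin into the brain, held 0, 2, 3 and 4 Lepr transcripts on the 4 plates, or 0, 4.01 and 5.22 CPM fed and 9.86 CPM fasted. Astrocyte-like cells held 0, 0, 1 and 3 transcripts and oligodendrocyte-like cells 0, 0, 0 and 2. The highest level in these 3 classes, 9.86 CPM, lay below the lowest level in any neuron class, 23.7 CPM.

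**Figure D1:**
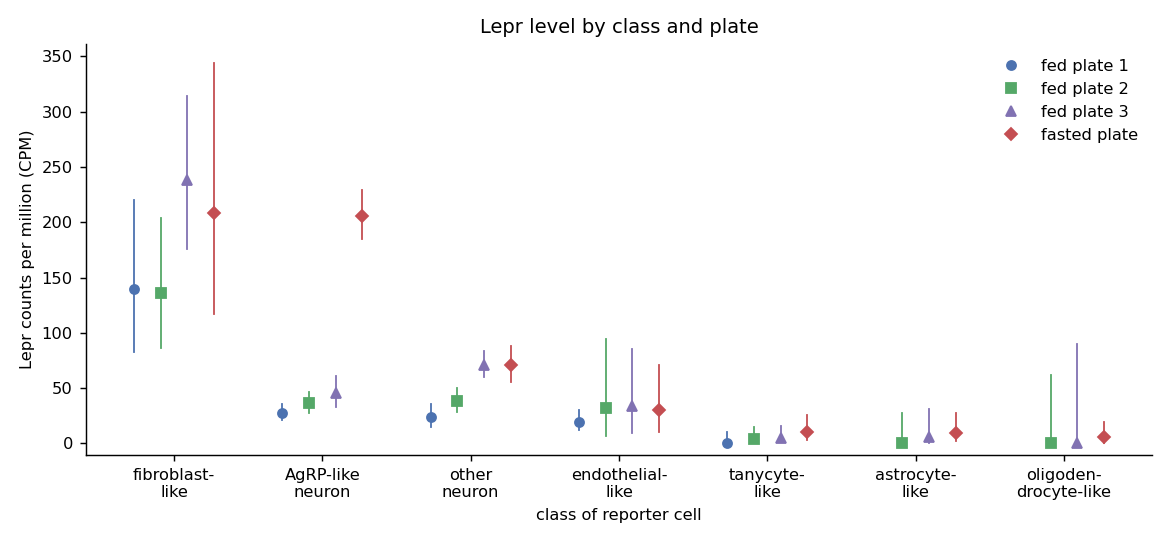
Lepr level per plate (CPM of the summed counts, vertical axis) in each class of cells, with 1 point per plate and vertical lines for exact Poisson intervals at 95%, which cover counting error only. Fibroblast-like cells lie at 136 CPM or above on every plate, AgRP-like neurons reach 206 CPM on the fasted plate, and tanycyte-like, astrocyte-like and oligodendrocyte-like cells lie at 9.86 CPM or below.

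Shares of cells gave a similar order when every cell was reduced to 1000 transcripts, so that deep and shallow cells had the same chance of showing the gene. A Lepr transcript was then seen in 17 of 102 (16.7%, 95% interval 10.02 to 25.3) of fibroblast-like cells, 14 of 195 (7.18%, 95% interval 3.98 to 11.8) of AgRP-like neurons and 8 of 190 (4.21%, 95% interval 1.83 to 8.13) of other neurons. Endothelial-like cells gave 4 of 126 (3.17%, 95% interval 0.872 to 7.93), tanycyte-like cells 1 of 234 (0.427%, 95% interval 0.0108 to 2.36) and astrocyte-like cells 1 of 112 (0.893%, 95% interval 0.0226 to 4.87). No transcript was seen in 51 oligodendrocyte-like cells, which by the limit of 3 counts allows a share of up to 5.88% of cells with a transcript at this depth, and unthinned 2 of the 51 held 1. The intervals are exact (Clopper-Pearson) and cover counting error only. The interval of fibroblast-like cells lies above that of other neurons and overlaps that of AgRP-like neurons, while those of AgRP-like and other neurons overlap. In AgRP-like neurons 9 of the 14 cells with a transcript came from the fasted plate, and the share was 2.91% without it. In other neurons the share was 1.71% without fed plate 3. Without thinning, 11 of 27, 11 of 31 and 16 of 31 fibroblast-like cells of fed plates 1 to 3 and 8 of 13 fasted cells held Lepr, at a median depth of 5320.5 transcripts, and 1 cell held 34.7% of the counts of fed plate 3. The unthinned shares at the greater depth of neurons were 31 of 82, 35 of 59 and 17 of 31 fed and 22 of 23 fasted AgRP-like neurons (median depth 30049), and 17 of 42, 16 of 50 and 41 of 73 fed and 15 of 25 fasted other neurons.

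Each class was then tested against its own plates' other cells with edgeR's quasi-likelihood test, with plate as block and p-values adjusted over all genes by Benjamini-Hochberg. Many genes differ between cell classes, so a passed test is common here. In fibroblast-like cells 2 of the 10 members rose and none fell, where 27.3% of 15656 genes passed, and these were Lepr at a log2 difference of 2.22 (SE 0.29, adjusted p = 3.88e-13) and Socs3. In tanycyte-like cells 3 of 10 fell (background 41.6% of 15594 genes), with Lepr at -3.55 (SE 0.36, adjusted p = 9.25e-08). Lepr also fell in astrocyte-like cells at -3.29 (SE 0.59, adjusted p = 1.98e-07), from 4 transcripts. In AgRP-like neurons Lepr stood at 0.85 (SE 0.43, adjusted p = 0.144), in other neurons at 0.21 (SE 0.21, adjusted p = 0.464) and in endothelial-like cells at -0.65 (SE 0.40, adjusted p = 0.186), none past the threshold of 0.05. The value of AgRP-like neurons was 0.15 without the fasted plate and 1.04 to 1.19 without a fed plate. Against other neurons, the Lepr difference of AgRP-like neurons was 0.40 (SE 0.40, adjusted p = 0.625), and without the fasted plate it was -0.19.

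Fibroblast-like cells and other neurons were uneven inside. Among fibroblast-like cells, cluster 3 (92 cells, led by Igf2, Igfbp2 and Slc6a13) held all 105 Lepr transcripts, at 152, 145 and 321 CPM in the fed plates and 212 CPM in the fasted one. Cluster 23 (10 cells, led by Slc47a1, Slc26a2 and Prg4) held none in 76517 transcripts. Among other neurons, cluster N0, 35 cells with Gad1, Gad2 and Slc32a1 and led by Cox6a2, Bnc2 and Nkx2-4, held 146 of the 299 Lepr transcripts. Its levels were 70.2, 118 and 176 CPM in fed plates 1 to 3 and 200.2 CPM in the fasted one. On each plate this lay above the level of the other-neuron class as a whole. The markers named 2 clusters, N1 and N3, as POMC-like neurons, the kind that opposes AgRP neurons, and their Lepr levels differed. Each met 3 of 8 markers, and the name of N3 is doubtful. Its Pomc level was near the 51.2 CPM of cluster N4, which took another name, and its Slc32a1 was 260.0 CPM against 64.5 CPM in N1. The Lepr level of N3 is therefore not read as that of POMC neurons. Cluster N3 (21 cells, led by Aldoc, Tbx19 and Anxa2), with Pomc at 76.6 CPM, held Lepr at 33.3, 86.8 and 138 CPM on the fed plates. Cluster N1 (31 cells), the richest in Pomc at 2008.2 CPM, held Lepr at 16.4, 31.6 and 11.9 CPM fed and 20.1 CPM fasted. The somatostatin-like cluster N2 stood at 14.0, 8.70 and 13.7 CPM on the fed plates, from 1, 2 and 4 transcripts, and at 91.5 CPM on the fasted plate, from 26 transcripts in 5 cells. The cells of a cluster are not replicates, so these levels carry no test.

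Jak2 and Sh2b1, the kinase and its adaptor, had other patterns than the receptor. Jak2 was low in AgRP-like neurons at 26.5, 30.3 and 40.0 CPM in fed plates 1 to 3 and 34.6 CPM in the fasted one, against 45.3, 61.2 and 56.9 CPM fed and 65.2 CPM fasted in other neurons. On each plate the AgRP-like level lay below that of other neurons. The log2 difference between AgRP-like and other neurons was -0.77 (SE 0.16, adjusted p = 0.00301) in edgeR, and against all remaining cells it was -0.97 (SE 0.20, adjusted p = 0.0026). Of the 10 members, 1 rose and 2 fell in AgRP-like neurons against all remaining cells (background 44.6% of 15413 genes). Of the 8 classes tested against the rest, endothelial-like cells had the highest fed mean of Jak2, at 135, 64.3 and 117 CPM fed and 85.2 CPM fasted, where it was the 1 member of 10 that rose (background 40.3% of 15889 genes), at 1.08 (SE 0.30, adjusted p = 0.00119) in edgeR. That call rests on fed plate 1: the difference was 0.72 (adjusted p = 0.134 in edgeR) without that plate and 0.70 (adjusted p = 0.109) without cluster 8. Sh2b1 passed in no class tested against the rest and stood at 56.7, 47.5 and 38.0 CPM fed and 31.5 CPM fasted in AgRP-like neurons and 50.7, 54.6 and 51.1 CPM fed and 36.2 CPM fasted in other neurons.

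Stat3, the main carrier of the leptin signal, was higher in AgRP-like neurons than in the remaining neurons. It stood at 357, 385.2 and 419 CPM in fed plates 1 to 3 and 359 CPM in the fasted one in AgRP-like neurons and at 245, 182 and 318 CPM fed and 204 CPM fasted in other neurons. The lowest AgRP-like level lay above the highest level of other neurons. In edgeR the log2 difference was 0.74 (SE 0.11, adjusted p = 0.000177), and Stat3 and Jak2 were the 2 of 9 members tested that passed, 1 in each direction, where 15.5% of 12793 genes passed. Against all remaining cells Stat3 rose in AgRP-like neurons by 0.70 (SE 0.17, adjusted p = 0.00727), and without fed plate 2 the value was 0.53 (adjusted p = 0.0553 in edgeR). Stat3 fell in tanycyte-like cells at -0.64 (SE 0.14, adjusted p = 0.00111), in astrocyte-like cells at -0.89 (SE 0.23, adjusted p = 0.000453) and in oligodendrocyte-like cells at -1.84 (SE 0.37, adjusted p = 9.5e-06). The last of these was -1.25 (adjusted p = 0.0533 in edgeR) without the fasted plate, which held 35 of 51 oligodendrocyte-like cells. The fibroblast-like cells, with the highest Lepr, held Stat3 at 263, 236 and 306 CPM fed and 209 CPM fasted, or -0.14 (SE 0.23, adjusted p = 0.708) against the rest in edgeR.

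Stat5a and Stat5b carry signals of leptin and, more prominently, of growth hormone and prolactin. Stat5a was sparse, with 132 transcripts in all kept cells and 4.65, 4.16 and 4.11 CPM fed and 11.7 CPM fasted in AgRP-like neurons, and it passed in no class. Stat5b stood at 69.8, 74.3 and 72.9 CPM fed and 77.8 CPM fasted in AgRP-like neurons and 76.6, 70.8 and 93.1 CPM fed and 81.5 CPM fasted in other neurons. In other neurons 1 of 10 members rose and 2 fell (background 41.1% of 15459 genes). The rise was that of Stat5b, 0.35 (SE 0.13, adjusted p = 0.0471) in edgeR, and it did not pass in 6 of the alternatives, among them leaving out any 1 plate (adjusted p from 0.0615 to 0.217). The falls were those of Stat3, -0.39 (SE 0.13, adjusted p = 0.0336), and Socs3. The fall of Stat3 did not pass without fed plate 1, without fed plate 2 or without the fasted plate, with -0.31 to -0.34 (adjusted p from 0.114 to 0.14 in edgeR).

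**Figure D2:**
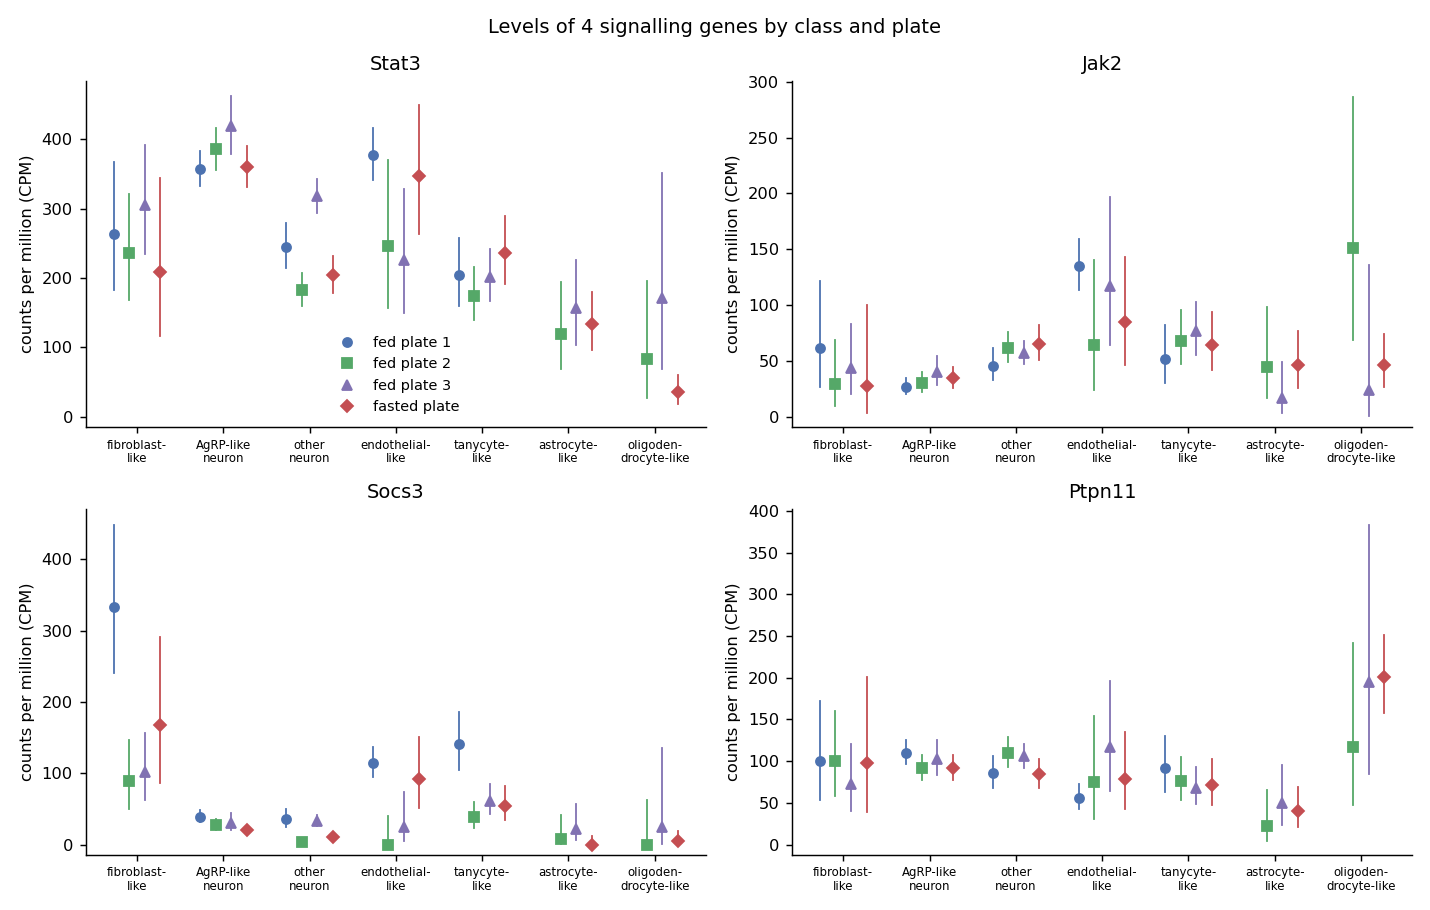
Levels of the signalling genes Stat3, Jak2, Socs3 and Ptpn11 (CPM of summed counts, vertical axes, 1 panel per gene) by class of cells. Each plate has 1 point, with a vertical line for the exact Poisson interval. Stat3 in AgRP-like neurons lies between 357 and 419 CPM, above other neurons on every plate, while Jak2 in AgRP-like neurons lies between 26.5 and 40.0 CPM, below other neurons on every plate.

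None of the member phosphatases Ptpn11, Ptpn1 and Ptpn2 passed between AgRP-like and other neurons. Ptpn11, the gene of SHP2, stood at 110.2, 91.5 and 103 CPM fed and 92.0 CPM fasted in AgRP-like neurons and 85.2, 110 and 106 CPM fed and 84.2 CPM fasted in other neurons, a log2 difference of 0.07 (SE 0.13, adjusted p = 0.787) in edgeR. Of the 8 classes tested against the rest, it had its highest fed mean in oligodendrocyte-like cells, with 74 transcripts and 200.5 CPM on the fasted plate and 7 and 8 transcripts (117 and 195 CPM) on fed plates 2 and 3. In that class 1 of 10 members rose and 3 fell (background 27.5% of 14611 genes), with Ptpn11 at 1.31 (SE 0.35, adjusted p = 0.00135) in edgeR, and 0.69 (adjusted p = 0.566) without the fasted plate. In astrocyte-like cells 4 of 10 members fell (background 33.7% of 15280 genes), among them Ptpn11 at -1.09 (SE 0.33, adjusted p = 0.0049). That value was -0.86 (adjusted p = 0.0658 in edgeR) without fed plate 2.

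Ptpn1, the gene of PTP1B, stood at 52.5, 45.2 and 68.8 CPM fed and 64.8 CPM fasted in AgRP-like neurons and at 46.0, 42.1 and 47.0 CPM fed and 39.4 CPM fasted in tanycyte-like cells. Its fall in tanycyte-like cells, -0.60 (SE 0.21, adjusted p = 0.0256) in edgeR, did not pass without fed plate 1, fed plate 3 or the fasted plate (-0.48 to -0.62, adjusted p from 0.0735 to 0.114). Microglia or macrophage-like cells held Ptpn1 at 273 CPM on the fasted plate, from 33 transcripts, and too few fed cells for a test. Ptpn2, the gene of TCPTP, stood at 30.2, 32.7 and 34.9 CPM fed and 41.4 CPM fasted in AgRP-like neurons and passed in no class. On fed plate 1 its level in endothelial-like cells was 104 CPM, against 42.9, 25.1 and 54.8 CPM on the other plates.

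Socs3, the feedback inhibitor, was higher in fibroblast-like cells than in neurons. Fibroblast-like cells held 333, 88.5 and 102 CPM in fed plates 1 to 3 and 167 CPM in the fasted one, and AgRP-like neurons 39.1, 27.3 and 30.8 CPM in fed plates 1 to 3 and 19.8 CPM in the fasted one. In fibroblast-like cells the plates differed by more than their counting error, with fed plate 1 highest, yet the lowest lay above the highest of the AgRP-like neurons. Few cells carried these levels, as Socs3 was seen in 6 of 27, 10 of 31 and 6 of 31 fed and 7 of 13 fasted fibroblast-like cells, and 1 cell held 37.2% of the counts of fed plate 1 and 1 cell 38.1% of those of fed plate 3. In edgeR the difference from the remaining cells was 1.64 (SE 0.29, adjusted p = 2.47e-07) in fibroblast-like cells, -1.13 (SE 0.23, adjusted p = 0.00308) in AgRP-like neurons and -1.85 (SE 0.33, adjusted p = 0.00215) in other neurons. In other neurons the plates were far apart, at 35.6, 3.69 and 32.8 CPM fed and 9.96 CPM fasted, so that 2 plates were low and 2 were near the AgRP-like level. Socs3 also fell in astrocyte-like cells, -2.51 (SE 0.58, adjusted p = 8.97e-05), and in oligodendrocyte-like cells, -2.72 (SE 0.83, adjusted p = 0.006), from 5 and 3 transcripts. Without the fasted plate these values were -1.41 (adjusted p = 0.111 in edgeR) and -2.12 (adjusted p = 0.485). Microglia or macrophage-like cells held Socs3 at 534, 567 and 348 CPM on fed plates 2 and 3 and the fasted plate, without a test. In oligodendrocyte precursor-like cells 2 of 10 members fell (background 21.1% of 14887 genes), namely Lepr, from 1 transcript, and Stat3 at -0.64 (SE 0.25, adjusted p = 0.0499). The Stat3 value there was -0.49 (adjusted p = 0.291 in edgeR) without fed plate 2 and -0.42 (adjusted p = 0.491) without fed plate 3.

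The start regions of Socs3 and Lepr are shown because these are the 2 members that rose in fibroblast-like cells, and because STAT dimers are known to bind the palindrome TTCNNNGAA. Each window runs from 250 bases before to 50 bases after a RefSeq start (GRCm38.p6) and is written 5′ to 3′ on the strand of the gene. Capitals mark matches to the palindrome, which reads the same on both strands. The Socs3 window is chr11:117969317-117969616 on the minus strand, and the Lepr window is chr4:101717157-101717456 on the plus strand.
Socs3: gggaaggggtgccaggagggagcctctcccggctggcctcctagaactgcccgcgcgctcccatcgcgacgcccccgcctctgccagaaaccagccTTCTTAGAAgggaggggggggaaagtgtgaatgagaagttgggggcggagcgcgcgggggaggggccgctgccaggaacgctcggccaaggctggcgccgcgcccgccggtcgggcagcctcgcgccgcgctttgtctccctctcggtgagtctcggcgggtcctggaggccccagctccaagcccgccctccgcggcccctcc
Lepr: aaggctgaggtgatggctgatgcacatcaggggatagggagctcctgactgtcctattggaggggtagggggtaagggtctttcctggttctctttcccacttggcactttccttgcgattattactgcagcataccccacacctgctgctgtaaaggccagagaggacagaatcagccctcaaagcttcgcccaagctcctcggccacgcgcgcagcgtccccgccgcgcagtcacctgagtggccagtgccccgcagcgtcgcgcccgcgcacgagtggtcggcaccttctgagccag
The Socs3 window holds 1 match, starting 154 bases before the start site, and neither this Lepr window nor the second annotated one (chr4:101717656-101717955) holds any. Of the 13 windows of the 9 members that the RefSeq table lists, this was the 1 match, and 2726 of all 32851 windows of 300 bases (8.3%) hold one. A match describes these letters only.

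Class I cytokine receptors, the family that Lepr belongs to, were described without Lepr by 17 genes, of which 12 were tested in fibroblast-like cells and 5 rose and 2 fell (median log2 difference 0.02 against -0.26 over all genes tested). The counts of these lists stand beside the 27.3% of all genes that passed in this comparison. The rising ones were Il13ra1 (2.99), Il6ra (2.28), Osmr (2.22), the shared signalling chain Il6st (1.83) and Il11ra1 (1.19). The prolactin receptor Prlr (-3.33) and the growth hormone receptor Ghr (-0.64) fell. Of 17 other JAK, STAT and SOCS genes tested there, Stat6 rose (2.05) and Socs2 and Socs7 fell (-1.96 and -1.10), with a median of 0.20 against -0.26 over all genes tested. In the branch of insulin receptor substrates and PI3K, 2 of 20 rose, among them Irs1 (1.65), and 3 fell, among them Irs4 (-3.50). In the SHP2 and ERK branch 2 of 17 rose, among them the adaptor Shc1 (2.90), and 4 fell. Of 17 further phosphatases and modifiers 1 rose and 4 fell. Of 16 genes that leptin is known to change in hypothalamus, 3 rose and 11 fell, among the latter the neuronal peptide genes Pomc (-3.48) and Agrp (-3.14), and the list includes Socs3.

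Between AgRP-like and other neurons, 3 of 15 other JAK, STAT and SOCS genes tested rose in AgRP-like neurons and none fell (median 0.14 against 0.00 over all genes tested), where 15.5% of all genes passed, the share to set beside each count here. They were Stat6 (1.61) and the feedback inhibitors Socs2 (1.56) and Cish (1.49), both known targets of STAT5. Of 20 genes of the insulin receptor substrate and PI3K branch, 4 rose, including Irs4 (1.69), Foxo1 (1.31), the transcription factor that insulin signalling drives out of the nucleus, and Irs2 (0.61). The regulatory subunit Pik3r1 fell (-1.06), as did Pdpk1 (-0.39). In the SHP2 and ERK branch, 3 of 17 rose, with the adaptors Gab1 at 1.63 and Shc1 at 1.54, and 2 fell, Gab2 (-0.56) and Map2k1 (-0.52). Of 16 further phosphatases and modifiers none rose and 3 fell, the adiponectin-binding cadherin Cdh13 (-4.06) and the receptor phosphatases Ptpre (-0.85) and Ptprj (-0.69). Of 9 class I cytokine receptors tested (median 0.25) 3 rose, namely Ghr (2.42), which is a marker that named the class, Il2rg (2.10) and Il6st (0.52), and 2 fell, Prlr (-3.25) and Il13ra1 (-1.05). Of 15 genes that leptin is known to change 5 rose and 5 fell (median 0.15), among them the class markers Agrp and Npy, which rose. Values in brackets are edgeR log2 differences past the threshold.

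On the fasted plate Lepr was higher in AgRP-like neurons, and this was the 1 member of 10 that rose there, where 5.03% of 13101 genes passed. The edgeR log2 difference, fasted minus fed, was 2.58 (SE 0.23, adjusted p = 1.02e-09), from summed levels of 27.4, 36.3, 45.2 and 206 CPM. Leaving out any fed plate gave 2.40 to 2.73. In single cells the median was 0, 27.5 and 26.1 CPM in fed plates 1 to 3 and 160.2 CPM in the fasted one, and the highest cells stood at 316, 153, 197 and 809 CPM. Of 172 fed cells, 4 reached the fasted median. The cell with most Lepr held 18.9% of the fasted counts, and 22 of 23 fasted cells held at least 1 transcript.

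The fasted AgRP-like cells were also deeper, with a median of 65352 transcripts (20367 to 144751) against 26017, 30397 and 32886 on the fed plates. After reduction to 10000 transcripts per cell, Lepr was seen in 17 of 77 (22.1%), 17 of 55 (30.9%) and 9 of 27 (33.3%) fed cells and in 19 of 23 fasted cells (82.6%, 95% interval 61.2 to 95.05). The fed shares lay below the lower bound of the fasted interval. In other neurons the same reduction gave 24.4, 21.3 and 38.8% in the fed plates and 26.1% in the fasted one. The fasted cells sat in cluster 18, which held 1 fed cell, while the other fed cells sat in clusters 4 and 5. The fed cells were split by plate as well. Cluster 4 held 82, 0 and 4 cells of fed plates 1 to 3, and cluster 5 held 0, 59 and 26. CPM values are relative to all transcripts of a cell.

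**Figure D3:**
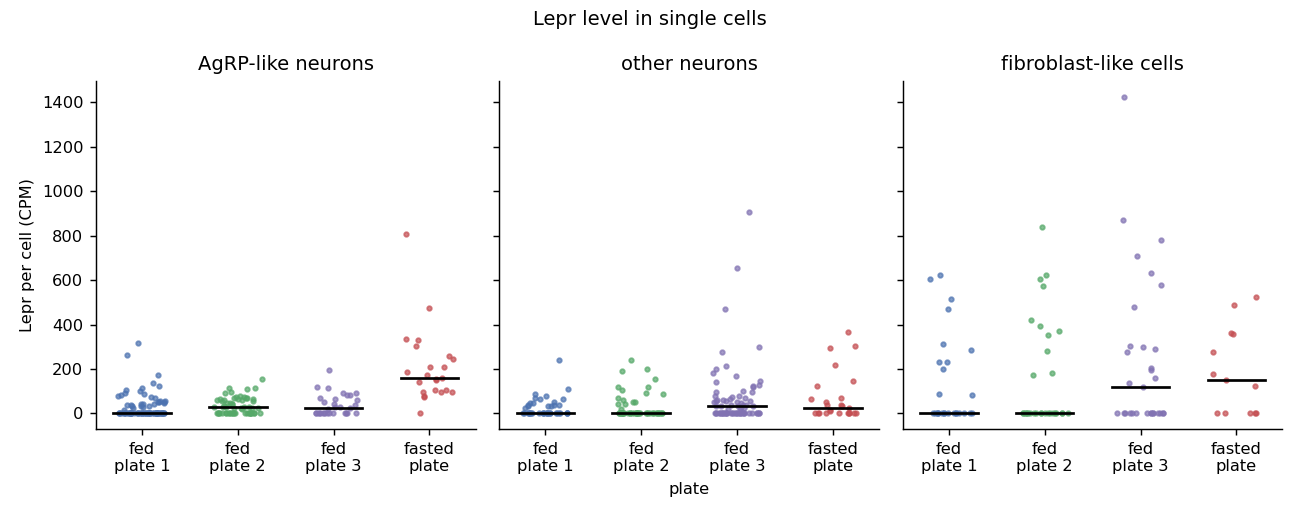
Lepr in single AgRP-like neurons, other neurons and fibroblast-like cells by plate (CPM, vertical axis, 1 panel per class), with 1 point per cell and a bar at the median of each plate. In AgRP-like neurons the fasted median is 160.2 CPM, and 4 of 172 fed cells lie at or above it.

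Several features moved with the fasted plate, and their part in the Lepr difference was not tested except where a value is given. The median mitochondrial share of kept cells, a sign of RNA quality, was 6.51, 5.76 and 6.41% in the fed plates and 8.34% in the fasted one. Of the 23 fasted AgRP-like cells, 22 were Xist-only (Xist, no Y-linked transcript). In Xist-only cells, with plates of 5 or more cells (an alternative chosen after seeing the data), the Lepr difference was 2.51 (adjusted p = 1.49e-04 in edgeR). Their levels were 5.92 CPM (1 transcript in 7 cells), 40.2 and 58.9 CPM in the fed plates and 209 CPM in the fasted one. Summed markers of fibroblasts, the class richest in Lepr, stood in AgRP-like neurons at 163, 155 and 130 CPM in the fed plates and 91.3 CPM in the fasted one, where Lum and Slc47a1, 2 of the 12, were at 0. The 12 markers summed to between 25500 and 43820 CPM in fibroblast-like cells, and in AgRP-like neurons they were lowest on the fasted plate. Pars tuberalis markers stood at 405, 215 and 231 CPM fed and 1091 CPM fasted, microglial markers at 39.5, 39.2 and 30.8 CPM fed and 105 CPM fasted, and oligodendrocyte markers at 225, 271 and 188 CPM fed and 437 CPM fasted.

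In other neurons the fasting difference of Lepr was 0.61 (SE 0.50, adjusted p = 0.709) in edgeR, with 0.34 without fed plate 1 and 1.16 without fed plate 3, and in fibroblast-like cells 0.27 (SE 0.52, adjusted p = 0.847). The difference of these differences was tested with the interaction of class and feeding. For AgRP-like against other neurons it was 1.82 (SE 0.32, adjusted p = 0.00341) in edgeR, the 1 member of 10 that passed where 1.1% of 13709 genes did, and 1.78 (adjusted p = 0.438) in DESeq2. Against fibroblast-like cells, a test added after seeing the data, Lepr passed at 2.28 (SE 0.54, adjusted p = 0.02 in edgeR), where 0.172% of 12176 genes passed. Summed over all neurons the Lepr difference was 1.87 (SE 0.40, adjusted p = 0.216), and over all kept cells 1.28 (SE 0.42, adjusted p = 0.578). In such sums, fewer cells of a type and less RNA per cell cannot be told apart.

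No other member passed between fasted and fed in any class. In AgRP-like neurons Socs3 stood at 39.1, 27.3 and 30.8 CPM in fed plates 1 to 3 and 19.8 CPM in the fasted one, a log2 difference of -0.70 (SE 0.35, adjusted p = 0.288) in edgeR. The fasted level was the lowest of the 4 plates. Stat5a stood at 4.65, 4.16 and 4.11 CPM fed and 11.7 CPM fasted, from 10, 7, 4 and 19 transcripts, with a log2 difference of 1.44 (SE 0.66, adjusted p = 0.228). Stat3 (-0.07), Stat5b (0.14), Jak2 (0.17), Ptpn1 (0.28), Ptpn2 (0.38) and Ptpn11 (-0.11) had smaller log2 differences. The share of AgRP-like cells in which Lepr, Jak2 and Stat3 were all seen was 14 of 82, 20 of 59 and 14 of 31 in the fed plates and 19 of 23 in the fasted one, at unequal depths.

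Sh2b1 was lower on the fasted plate than on each fed plate in AgRP-like neurons (56.7, 47.5 and 38.0 CPM fed and 31.5 CPM fasted), in other neurons (50.7, 54.6 and 51.1 CPM fed and 36.2 CPM fasted) and in tanycyte-like cells (60.4, 44.1 and 62.6 CPM fed and 34.5 CPM fasted). Fibroblast-like, endothelial-like and astrocyte-like cells had the same order among plates with 5 or more cells, from 1 to 15 fasted transcripts. Over all kept cells it was 53.4, 49.1 and 52.9 CPM fed and 36.5 CPM fasted, a log2 difference of -0.52 (SE 0.21, adjusted p = 0.613) in edgeR. The classes share their plates, so these are not separate tests, and none passed.

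**Figure D4:**
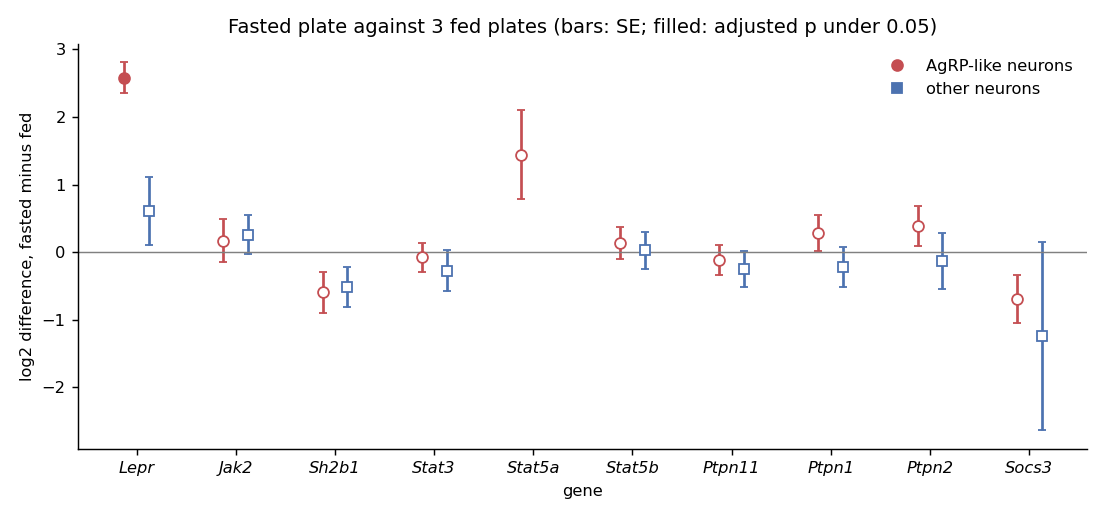
Log2 difference between the fasted plate and the 3 fed plates (vertical axis) for each member tested in AgRP-like neurons and in other neurons, with bars of 1 SE from edgeR. Lepr in AgRP-like neurons, at 2.58, is the 1 value past the threshold.

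Outside AgRP-like neurons no member passed between fasted and fed in edgeR. Over all neurons 0 of 10 members passed where 0.173% of 15061 genes did, with Lepr and Sh2b1 at an unadjusted p under 0.05 (0.00361 and 0.0333 in edgeR) and 1 member, Lepr, passing in DESeq2. Over all kept cells 0 of 10 passed and 0.0% of 18241 genes did, although 1500 genes had an unadjusted p under 0.05, Lepr among them (0.0305 in edgeR), and 80 genes and 0 members passed in DESeq2. In endothelial-like cells 0 of 8 members passed (0.241% of 4971 genes did), with 1, Sh2b1, at an unadjusted p under 0.05. In other neurons (0 of 9 members against 0.143% of 12585 genes), tanycyte-like cells (0 of 8 against 3.08% of 10409), fibroblast-like cells (0 of 6 against 1.06% of 5301) and astrocyte-like cells (0 of 3 against 0.601% of 5323, on 3 plates), 0 members had an unadjusted p under 0.05 in edgeR and 0 passed in DESeq2. The classes outside neurons held few transcripts of most members, which limits what could be detected there.

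The counts of other pathway genes that passed between fasted and fed AgRP-like neurons stand beside the 5.03% of all genes that passed. The lists are short, so these counts are not read as a trait of the pathway. None of 16 other JAK, STAT and SOCS genes, none of 20 of the insulin receptor substrate and PI3K branch and none of 16 further modifiers passed in edgeR, against the 5.03% of all genes given above, with medians of -0.02, 0.19 and 0.14 against -0.02 over all genes. Of 17 genes of the SHP2 and ERK branch, the adaptor Gab2 rose (0.73, adjusted p = 0.0404). Of 14 genes that leptin is known to change in hypothalamus, 3 rose and none fell, namely the neuropeptide precursor Vgf (3.88), Agrp (1.00) and Asb4 (0.84). Of 10 class I cytokine receptors, Ghr rose (1.15, SE 0.22). Agrp and Ghr are also among the markers that named the class.

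Neurons with and without a Lepr transcript were compared within plates after reduction to 5000 transcripts per cell. In other neurons 7 of 3820 genes passed in edgeR. Higher with Lepr were Serpina3n (1.97), a protease inhibitor, the appetite peptide gene Cartpt (1.16), Sgcz (0.89) and Nkain2 (0.81), and lower were the neuropeptide genes Tac1 (-6.73) and Gal (-2.11) and the channel subunit Kcnip4 (-0.77). Of the 3 members tested, 0 passed (0.183% of 3820 genes passed). Jak2 had the largest difference of the 3, 1.10 (SE 0.57, adjusted p = 0.958). On the fed plates it was seen in 13 of 27 other neurons with Lepr and in 33 of 137 without. Of 8 tested genes that leptin is known to change 3 passed, Serpina3n and Cartpt higher and Gal lower, and the 7 calls rest on fed plate 1, since 0 genes passed without it. Cells with Lepr were also not spread evenly over kinds of neurons, as cluster N0 held 146 of 299 Lepr transcripts. In AgRP-like neurons 1 member could be tested, 0 passed, and 0.0% of 1766 genes passed, with 0 members and 108 genes at an unadjusted p under 0.05.

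Xist-only cells were set against Y-only cells (Y-linked transcripts, no Xist) within fed plates, to give the size of a sex difference beside that of feeding. The edgeR log2 difference of Lepr was -0.01 (SE 0.42, adjusted p = 1) in AgRP-like neurons, 0.21 (SE 0.31, adjusted p = 1) in all neurons and 0.32 (SE 0.28, adjusted p = 0.813) in all kept cells. In edgeR 0 of 9 members passed in AgRP-like neurons (0.0744% of 8060 genes did), 0 of 9 in all neurons (0.201% of 11455) and 0 of 10 in all kept cells (0.0508% of 13785). At an unadjusted p under 0.05 there was 1 member, Stat3 in AgRP-like neurons, at 0.35 (SE 0.15, adjusted p = 0.999). Within a fed plate, AgRP-like Y-only cells held Lepr at 31.2, 34.5 and 38.7 CPM.

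Across the 11 classes with 10 or more fed cells, the genes whose levels most resembled those of Lepr were Trp53inp2 (Pearson r 0.91 on log2(CPM + 10)), Epha3 (0.90), Il13ra1 (0.89), Rbms3 (0.87), March6 (0.86), Errfi1 (0.85), Slit3 (0.85) and Sept11 (0.85), out of 14372 genes. Among the members, Socs3 (0.71) and Stat3 (0.64) came nearest and Ptpn11 (-0.28) was farthest, while Jak2 stood at 0.02 and Stat5a did not reach 20 CPM in any class. The 11 points share the same 3 plates and differ in depth. Each averages, at equal weight, the fed plates with any cell of the class. Plates of 1 pars tuberalis-like, 2 oligodendrocyte-like and 3 astrocyte-like cells thus count like plates with more cells. Leprot, the gene upstream of Lepr on chromosome 4, stood at -0.35.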

How the data were processed

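Single sorted cells were measured by CEL-seq2, in which each well has a barcode of its own and each mRNA a UMI, counted near its 3′ end. Per the submitters' processing notes, reads went through Trim Galore and STAR with mm10; which UMI counter and annotation release followed is not stated in the sources used here. The authors deposited 1 table of expected counts per plate, UMI numbers of each gene in each well after correction for collisions. Every value traced back to whole UMIs out of 4096 within 1e-06. All 4 plates use the same 384 well barcodes, so cells were named by plate and well. The 10 members and the gene lists were chosen with earlier results of these data known. Of 35963 gene identifiers, 35910 were found in GENCODE vM21, the source of coordinates on GRCm38.

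Leaving spike-ins and mitochondrial genes aside, wells of 1000 or more transcripts were kept if the mitochondrial share was under 30%. The wells left out held 2, 0 and 0 Lepr transcripts in the fed plates and 3 in the fasted one. Clustering in scanpy 1.11.5 (leidenalg 0.10.2, anndata 0.12.19, pandas 2.3.3, scipy 1.17.1, numpy 2.4.6, under Python 3.11.15) used 2000 variable genes without the members and lists, 30 components, 10 neighbours and Leiden resolution 1.5, and gave 24 clusters. A cluster could take a name when at least 3 markers of 1 of 29 sets were enriched by a log2 fold of 1 and seen in 25% of its cells. That set's share of enriched markers also had to exceed every other set's, and no other set could hold more of the cluster's 10 leading genes. Otherwise the cluster stayed unnamed. Clusters 14, 16 and 20 met 9 of 9 endothelial markers but stayed unnamed by this rule. They were among the remaining cells against which endothelial-like cells were tested. Clusters with at least 55 transcripts of 9 neuron markers per 10000 counted as neurons, a value chosen after seeing the data. Neurons outside the AgRP-like clusters were clustered again into 13 clusters. With 1 cell sorted per well, no doublet caller was run. Xist together with a Y-linked transcript was found in 3.09, 7.45 and 15.7% of cells in the fed plates and 2.22% in the fasted one. Whether such wells held more than 1 cell or stray RNA was not tested.

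Counts were rounded, summed per plate and class, and tested in edgeR 4.0.16 (limma 3.58.1, R 4.3.3) by quasi-likelihood with TMM and filterByExpr, with p-values adjusted over all genes by Benjamini-Hochberg, at 0.05. Dispersions were moderated robustly over all genes, so the p-value of a gene rests partly on the spread of other genes. Classes were compared with plate as block. Fasted and fed plates were compared without one, with 2 residual degrees of freedom (1 for astrocyte-like cells, which lacked enough cells on fed plate 1), in classes with 10 or more cells on the fasted plate. Levels are CPM of plain sums. Intervals (95%) and the floor of 3 counts for a count of 0 cover counting error only. Thinning drew 1000, 5000 or 10000 transcripts per cell without replacement and left out shallower cells. Tested on simulated data with 200 changed genes, the fasted comparison of AgRP-like neurons recovered 191 (95.5%) of those changed by 2 on the log2 scale, with 8 false calls among 12603 genes. In the simulation, genes of like level had the same spread, so spread particular to single genes was left out. The counts of recovered and false calls hold for the simulated data and do not extend to sparse genes. They do not show how often an effect of the fasted plate itself would be called, since feeding cannot be told apart from plate.

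The text names the 10 members in every comparison, and of each list the genes past the threshold, up to 6 per comparison by absolute log2 difference. For neurons with Lepr it names up to 5 called genes in each direction. For the pattern of Lepr it names the 8 genes with the highest Pearson r, among genes with at least 20 CPM in a class. Genes of the lists outside this rule are counted only. Alternatives were RLE scaling, no filter on low counts, DESeq2 1.42.0, resolution 1.0, 3000 transcripts per cell, cells with Xist alone and each plate left out in turn. The figures were drawn with matplotlib 3.10.9.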

Additional observations from a re-analysis of the deposited data

Results flagged for a closer look

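The difference between fasted and fed in Lepr was larger in AgRP-like neurons than in other neurons, with a log2 difference of 1.82 (SE 0.32 and adjusted p = 0.00341 in edgeR's test of the interaction of class and feeding). Levels were 27.4, 36.3 and 45.2 CPM in the fed plates and 206 CPM in the fasted one in AgRP-like neurons, and 23.7, 38.4 and 70.9 CPM fed and 70.6 CPM fasted in other neurons. In cells with Xist alone the value was 2.09 (adjusted p = 0.00855 in edgeR), in an alternative chosen after seeing the data. It rests on few cells, as fed plate 1 held 1 Lepr transcript in 7 such AgRP-like neurons and 2 in 6 such other neurons. With all cells of both classes, DESeq2 gave 1.78 (adjusted p = 0.438). The fasted level comes from 1 plate.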

How the results depend on the processing

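No paired analysis was possible, because the fasted group has 1 plate and the sample labels used here do not pair it with a fed plate. Lepr kept its direction and its side of the threshold for fibroblast-like cells against the rest (2.08 to 2.53 over plates left out), tanycyte-like cells against the rest (-3.66 to -3.37) and fasted against fed AgRP-like neurons (2.40 to 2.73). Some Lepr differences that had not passed changed sign, namely other neurons against the rest (-0.05 to 0.47 over plates left out, the lowest without fed plate 3), AgRP-like against other neurons (-0.19 to 0.76, the lowest without the fasted plate), and fasted against fed, in cells with Xist alone, in other neurons (-0.14) and fibroblast-like cells (-0.04). The fasted Lepr difference passed over all neurons with no filter on low counts (1.86) and in DESeq2 (1.87), and over all kept cells with no filter (1.26). With plates left out it ran from 1.63 to 2.25 over all neurons and from 1.05 to 1.62 over all kept cells. Not all of these fits with a plate left out passed. The interaction for Lepr did not pass in DESeq2 (1.78), nor, in tests added after seeing the data, against endothelial-like (2.43), tanycyte-like (1.03) or astrocyte-like cells (0.76), classes with few Lepr transcripts. With plates left out it ran from 1.53 to 1.97. Genes called between neurons with and without Lepr numbered 1 in AgRP-like neurons without thinning, 1 with no filter and 0 to 1 with plates left out, and in other neurons 61 without thinning, 44 at 10000 transcripts and 0 to 15 with plates left out. At 3000 transcripts per cell, Lepr was seen in 32.9% of fibroblast-like cells, 13.1% of AgRP-like neurons and 13.3% of other neurons. At 1000 transcripts and with plates left out, the share ran from 2.91 to 10.3% in AgRP-like neurons, 1.71 to 5.0% in other neurons and 0 to 0.621% in tanycyte-like cells. The cause of these changes was not tested. Of the remaining values, 240 single-gene values kept direction and side and 27 lost their call, the latter given beside the calls where a plate decided them. Depth limits Stat5a everywhere and most members in glial and vascular cells.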
